A study of Homo sapiens with 12 samples.

Results

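The genes of the short arm of chromosome 5 (5p) are described here across 4 populations of SNU449 liver cancer cells. Members were selected on position and mean level, as protein-coding genes annotated on chromosome 5 that end below 46.4 Mb and have a mean normalized count above 30 over the 12 libraries. Genes whose names start with ADAMTS, NKD2 and CDH6 were left out by name, so that 73 of the 96 protein-coding 5p genes and of the 15601 genes in the table remained. The rest were 19 genes with a mean normalized count of 30 or lower and the 4 left out by name. The members next to the threshold were C5orf34 at a mean normalized count of 32.4, FASTKD3 at 32.8 and ANXA2R at 36.7, and the genes just outside it were IL7R at 25.4, CCL28 at 22.1 and CARD6 at 21.9. By group means solved from the authors' mean normalized counts, FYB1, TPPP, ANXA2R and FASTKD3 would miss the minimum without the SNU449-Axl-KO-Rego group. C5orf34 would miss it without SNU449-Axl-KO-ctrl. A high level of these members in the group named is thus partly a result of the selection. The arm was chosen with its joint shift in these libraries already known, so the counts and medians below describe the shift and are no independent support for it.

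RNA 3′ ends were sequenced from 4 groups of cells with 3 libraries each, to compare regorafenib (Rego) resistance in liver cancer cells that express or lack the receptor tyrosine kinase Axl. SNU449 is an established hepatocellular carcinoma cell line with a mesenchymal-like phenotype, and regorafenib is a multikinase inhibitor given to patients with this cancer. SNU449-ctrl cells were the naive line with intact Axl, and SNU449-Axl-KO-ctrl cells were naive cells of the same line with Axl knocked out. SNU449-Rego and SNU449-Axl-KO-Rego cells were derived from them by treatment with Rego, starting at 50% of the IC50 and raised by steps to 2 x IC50, and were treated again after every splitting. The labels call the libraries of a group technical triplicates, so each group stands for 1 population of cells. A p-value therefore measures a difference against the spread between libraries only, and the effect of Axl or of Rego cannot be told apart from other differences between the populations. The labels do not state whether the Axl-KO cells are a clone.

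The library values are whole numbers made by the authors from variance-stabilized levels after removal of a preparation effect, and are not counts. They had a minimum of 12, which compresses the differences of weakly expressed genes, and the depth per library is unknown. Differences are given as differences of group means of log2(value + 1) with the standard error (SE) from limma, fitted on all 15601 genes with the replicate number as a block. A gene was called where its Benjamini-Hochberg adjusted p over all genes was under 0.05. Since the libraries hold bulk RNA, a shift in part of the cells and a smaller shift in all of them cannot be told apart. DNA copy number was not measured in these libraries, and a dosage change was not tested.

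AXL (ENSG00000167601.12, chromosome 19) was examined first as a check of the labels. Its values were 727, 941 and 715 in SNU449-ctrl, 1237, 815 and 1271 in SNU449-Rego, 35, 53 and 33 in SNU449-Axl-KO-ctrl, and 50, 38 and 52 in SNU449-Axl-KO-Rego. All 6 Axl-KO libraries thus lay far below all 6 others, with differences of -4.29 (SE 0.24, adjusted p = 2.16e-09) between the control groups and -4.52 (SE 0.24, adjusted p = 1.27e-09) between the resistant groups. A 3′ tag may lie outside the edited part of the gene, so that the RNA level checks the labels only so far. Of the 5 mesenchymal-like markers all 5 were in the table, with VIM as the most abundant at a mean normalized count of 18945. Of the 7 hepatocyte markers AFP (4.26) and APOA1 (1.14) were present at low levels, and ALB, APOB, TTR, SERPINA1 and HNF4A were not in the table. Of 5 epithelial markers KRT18 alone was in the table, at 1092, while immune markers (2 of 3, CD68 highest at 6.19) were near the minimum and the 3 endothelial markers were absent from it. The cells thus carried the mesenchymal-like markers and hardly any hepatocyte RNA.

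Chromosome arm 5p carries genes for mitochondrial enzymes, translation, DNA repair, cytokine receptors and telomerase. Gain of the arm is a frequent chromosome change in many carcinomas, and its loss from the germline causes cri-du-chat syndrome. When the number of copies of an arm changes, the RNA of most of its genes usually shifts a little in the same direction, while genes under strong individual control may depart from that shift.

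As the joint level of the arm in a library, the median over the 73 members of the deviation from each gene's mean over the 12 libraries was taken, on the log2 scale. It was -0.54, -0.52 and -0.53 in the SNU449-ctrl libraries, and 0.13, 0.14 and -0.10 in the SNU449-Rego libraries. In SNU449-Axl-KO-ctrl it was 0.17, 0.20 and 0.31, and in SNU449-Axl-KO-Rego 0.24, 0.24 and 0.30. The 3 SNU449-ctrl libraries thus lay below all others and close together, the Axl-KO groups overlapped each other, and SNU449-Rego replicate 3 stood between the control cells and the rest. The group means were -0.53 ± 0.01, 0.06 ± 0.14, 0.22 ± 0.07 and 0.26 ± 0.03 in the same order (SD, n = 3). The 378 genes of the long arm (5q) chosen by the same level had group means of 0.07, -0.08, -0.00 and 0.02, and over all genes the median deviation stayed within 0.01 of 0 in every group.

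**Figure D1:**
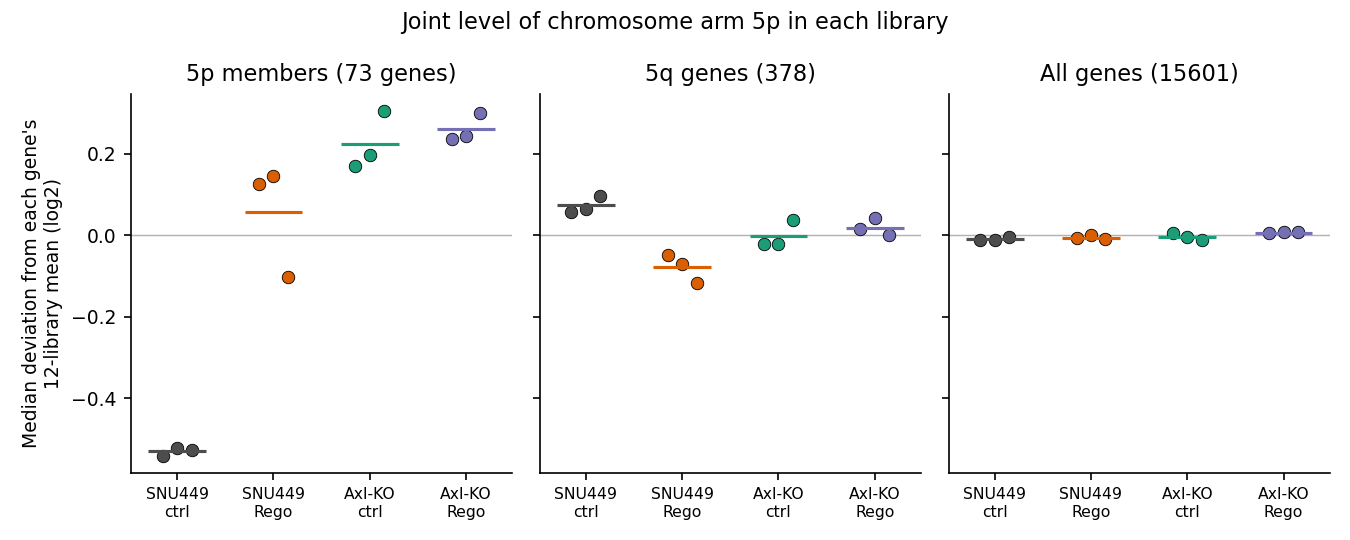
The median deviation from each gene's 12-library mean (log2) is plotted for each library, with points for libraries and lines for group means, for the 73 members, 378 genes of 5q and all 15601 genes. For the members, the 3 SNU449-ctrl libraries lie between -0.54 and -0.52 and the 9 others between -0.10 and 0.31.

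Among single genes, the SNU449-ctrl group had the lowest of the 4 group means in 66 of the 73 members (90.4%), against 27.1% of all genes. SNU449-Rego was lowest in 5 members, SNU449-Axl-KO-ctrl in 1 and SNU449-Axl-KO-Rego in 1. The highest mean was in SNU449-Axl-KO-ctrl for 33 members, in SNU449-Axl-KO-Rego for 31 and in SNU449-Rego for 9. All 3 SNU449-ctrl libraries lay below all 9 others in 37 members (50.7%), against 3.81% of all genes.

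The comparison of SNU449-Rego with SNU449-ctrl asks what differs in resistant cells with intact Axl. Levels on 5p were higher in the resistant cells, with a median difference of 0.56 (1.48-fold) and a middle range from 0.34 to 0.77, while the median of all genes was 0.00. Of the members 68 lay above 0 (93.2%, against 49.7% of all genes). Among the 9109 protein-coding genes with a mean normalized count above 30, limma called 487 higher and 361 lower. In limma 26 members rose and 0 fell, against 4.31% of all genes called higher and 3.5% called lower, and at an unadjusted p under 0.05 the members counted 46 higher (63.0%, against 11.5% of all genes) and 2 lower (2.74%, against 9.71%). Among those that rose furthest were NPR3 (2.51), the clearance receptor for natriuretic peptides, LPCAT1 (1.57), a lysophospholipid acyltransferase, SLC12A7 (1.54), a potassium-chloride cotransporter, the death-associated protein gene DAP (1.14) and the hydrolase gene CMBL (1.11). The number called was 15 without SNU449-Rego replicate 1 (20.5%, against 5.61% of all genes), 12 without SNU449-Rego replicate 2 (16.4%, against 780 of 15601 genes) and 17 (16 higher and 1 lower) without SNU449-ctrl replicate 2 (23.3%, against 4.74%), and 9 of the 26 members were called whichever of the 12 libraries was left out. The lower call was RETREG1, which was also called lower without SNU449-Axl-KO-ctrl replicate 1 and in the fit without the replicate block, and FYB1 and RETREG1 were called lower in the tables of pairs of groups without the block. These tables gave 40 called members without the block (54.8%, against 21.3% of all genes) and 12 with it (16.4%, against 4.36%).

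The comparison of SNU449-Axl-KO-ctrl with SNU449-ctrl asks what differs without Axl in naive cells. The 5p members were again higher than in SNU449-ctrl, with a median difference of 0.80 (1.74-fold), a middle range from 0.53 to 0.95 and a median over all genes of 0.00. Of the members 72 lay above 0 (98.6%, against 50.5% of all genes), with TTC33 at -0.09 the exception. Among the 9109 protein-coding genes with a mean normalized count above 30, limma called 455 higher and 363 lower. In limma 43 members rose and 0 fell, against 4.03% of all genes called higher and 3.43% called lower, and at an unadjusted p under 0.05 the numbers were 60 (82.2%, against 11.2% of all genes) and 0 (against 10.3%). SLC12A7 (1.54), LPCAT1 (1.37), NPR3 (1.31), the threonyl-tRNA synthetase gene TARS1 (1.24) and the unconventional myosin gene MYO10 (1.19) rose furthest. The number called was 27 without SNU449-Axl-KO-ctrl replicate 2 (37.0%, against 3.46% of all genes, where all libraries gave 58.9% and 7.45%), and 18 of the 43 were called whichever library was left out, with MYO10 at an adjusted p of 0.0766 without SNU449-Axl-KO-ctrl replicate 3 and 0.0758 without SNU449-ctrl replicate 2. This comparison shares the SNU449-ctrl libraries with the one above, so a low level in these 3 libraries raises the difference in both.

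Where SNU449-ctrl was not part of a comparison, the median of the members lay closer to that of all genes. Between SNU449-Axl-KO-Rego and SNU449-Axl-KO-ctrl, the resistance comparison in cells without Axl, the median of the members was -0.01 (0.994-fold), with 36 of 73 above 0 (49.3%, against 51.0% of all genes). FYB1 and TPPP rose and RAI14 fell, so that 2 members were called higher and 1 lower, near the shares of 2.54% and 1.81% among all genes. FYB1 and TPPP are members through their level in SNU449-Axl-KO-Rego, so their rise is not independent of the selection. Without SNU449-Axl-KO-Rego replicate 2 or replicate 3 the number called was 1 (1.37%, against 1.31% and 2.33% of all genes), and without SNU449-ctrl replicate 3 it was 5 (6.85%, against 5.71%). It was also 5 (6.85%) without the replicate block, with spike-in centring and with the tables of pairs of groups and the block, against 9.95%, 4.56% and 5.73% of all genes, and 17 (23.3%, against 3566 of 14287 genes) with these tables and no block. Between SNU449-Axl-KO-Rego and SNU449-Rego, which asks what differs without Axl in resistant cells, the median of the members was 0.19 (1.14-fold) against 0.01 over all genes, and 57 lay above 0 (78.1%, against 51.8%). FYB1, RETREG1, RICTOR and FBXO4 rose, which makes 4 called higher and 0 lower beside 2.44% and 1.93% of all genes, with 15 higher (20.5%, against 9.50% of all genes) and 1 lower (1.37%, against 8.67%) at an unadjusted p under 0.05. Here the number called was 2 without SNU449-Axl-KO-Rego replicate 1 or replicate 3 (2.74%, against 1.76% and 2.34% of all genes), and 1 without SNU449-Axl-KO-Rego replicate 2 or SNU449-Rego replicate 3 (1.37%, against 1.40% and 2.53%), and the median was 0.10 without SNU449-Rego replicate 3 and 0.29 without SNU449-Rego replicate 1. Centring on spike-in RNAs gave a median of 0.49, with 0.32 over all genes, and 23 members called higher (31.5%, against 14.4% of all genes). The number called was 11 (15.1%) without the replicate block, against 9.63% of all genes, 11 with the pair tables and the block, against 8.19%, and 24 (32.9%, against 28.4%) with the pair tables and no block.

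The difference between the Rego effects in the 2 backgrounds was tested as an interaction, the effect in SNU449-Axl-KO cells minus the effect in SNU449 cells. Its median over the members was -0.54, against 0.01 over all genes, and 11 of 73 members lay above 0 (15.1%, against 51.1%). In limma 1 member was called higher (FYB1) and 12 lower, against 2.92% and 2.95% of all genes. The 12 were SLC12A7, CLPTM1L, LPCAT1, NDUFS6, NSUN2, DAP, MYO10, DROSHA, PTGER4, NPR3, TARS1 and RAI14. The number called was 8 without SNU449-Axl-KO-Rego replicate 1 (against 3.74% of all genes), 6 without SNU449-Axl-KO-Rego replicate 2 (8.22%, against 3.35%) and 7 without SNU449-Axl-KO-ctrl replicate 2 (9.59%, against 3.41%), where all libraries gave 17.8% and 5.87%, and 6 of the 13 were called whichever library was left out. Without the replicate block 1 was called higher and 25 lower, against 5.78% and 5.93% of all genes, and with spike-in centring 1 higher and 7 lower, against 4.30% and 1.51%.

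Along the arm, the higher levels relative to SNU449-ctrl reached from the chromosome end to the centromere. In windows of 10 Mb, the median difference in SNU449-Rego was 0.68 from 0 to 10 Mb (18 members), 0.47 from 10 to 20 Mb (14 members), 0.47 from 30 to 40 Mb (25 members) and 0.55 from 40 Mb to the centromere (16 members). For SNU449-Axl-KO-ctrl the medians of the same windows were 0.85, 0.79, 0.80 and 0.65, and no member starts between 20 and 30 Mb. Beyond the centromere, the first 5q window from 50 to 60 Mb (21 genes) had medians of -0.25 and 0.00 in these comparisons. Over the whole long arm the medians were -0.17 and -0.08. The median was thus higher in all 4 windows of the short arm and not over the long arm of the same chromosome.

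**Figure D2:**
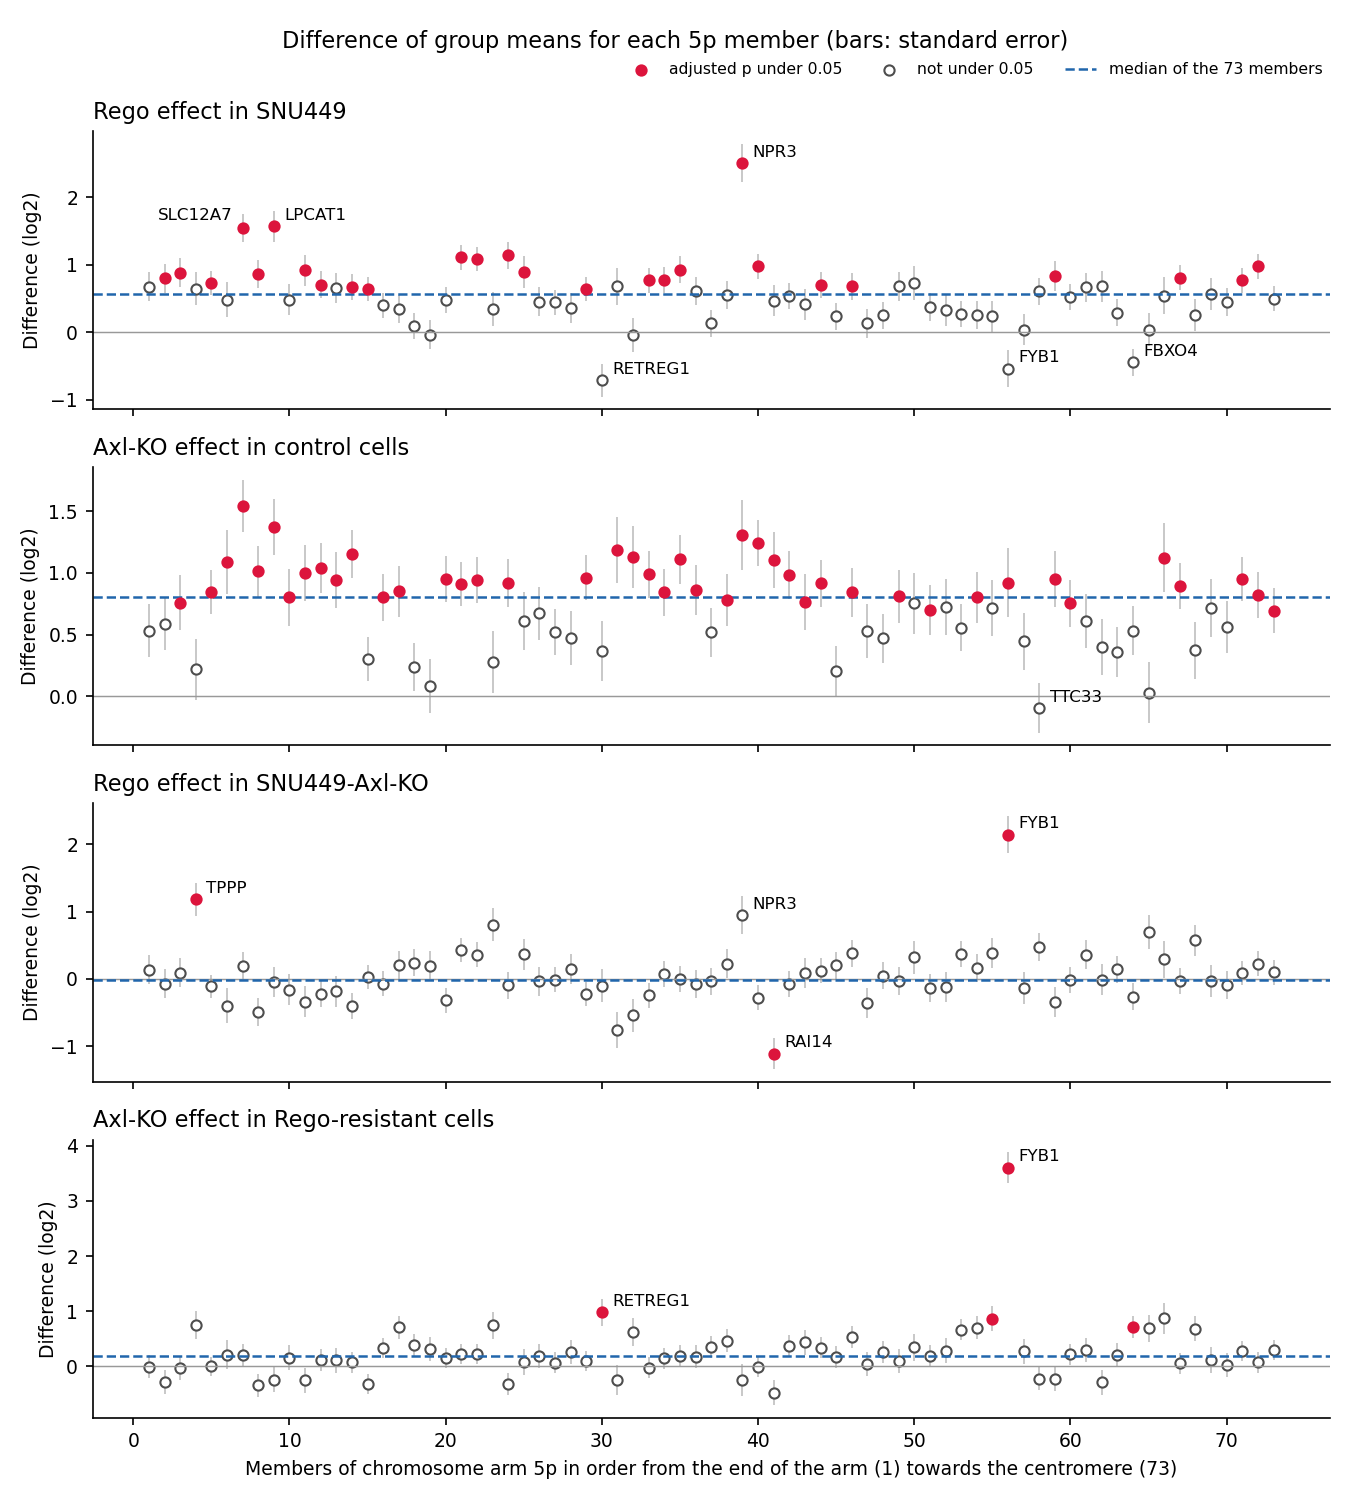
Each point is the difference of group means (log2) of a member, with its SE as a bar, in order from the end of the arm (1) to the centromere (73), filled where the adjusted p was under 0.05, with a dashed line at the median of the members. The dashed line lies at 0.56 and 0.80 in the comparisons with SNU449-ctrl and at -0.01 and 0.19 in the others, and the members that lie farthest from it are named.

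Among the 41 chromosome arms with at least 20 protein-coding genes above the same level, 5p had the largest median in absolute size in both comparisons with SNU449-ctrl. For 5p the members were used, without ADAMTS12 (52.9) and CDH6 (95.9), which lie above the level but were left out by name. The other arms kept all genes above the level. In SNU449-Rego the next arms were 19q at 0.47 and 19p at 0.42, and in SNU449-Axl-KO-ctrl 4q at -0.45 and 19p at 0.44. In the resistance comparison without Axl, 5p ranked 34 of 41, and in the Axl comparison of resistant cells 15 of 41. For the interaction, 5p ranked 5, after 19p at -0.82 as the largest. Other arms thus shifted as well, and the arms were compared without a test.

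**Figure D3:**
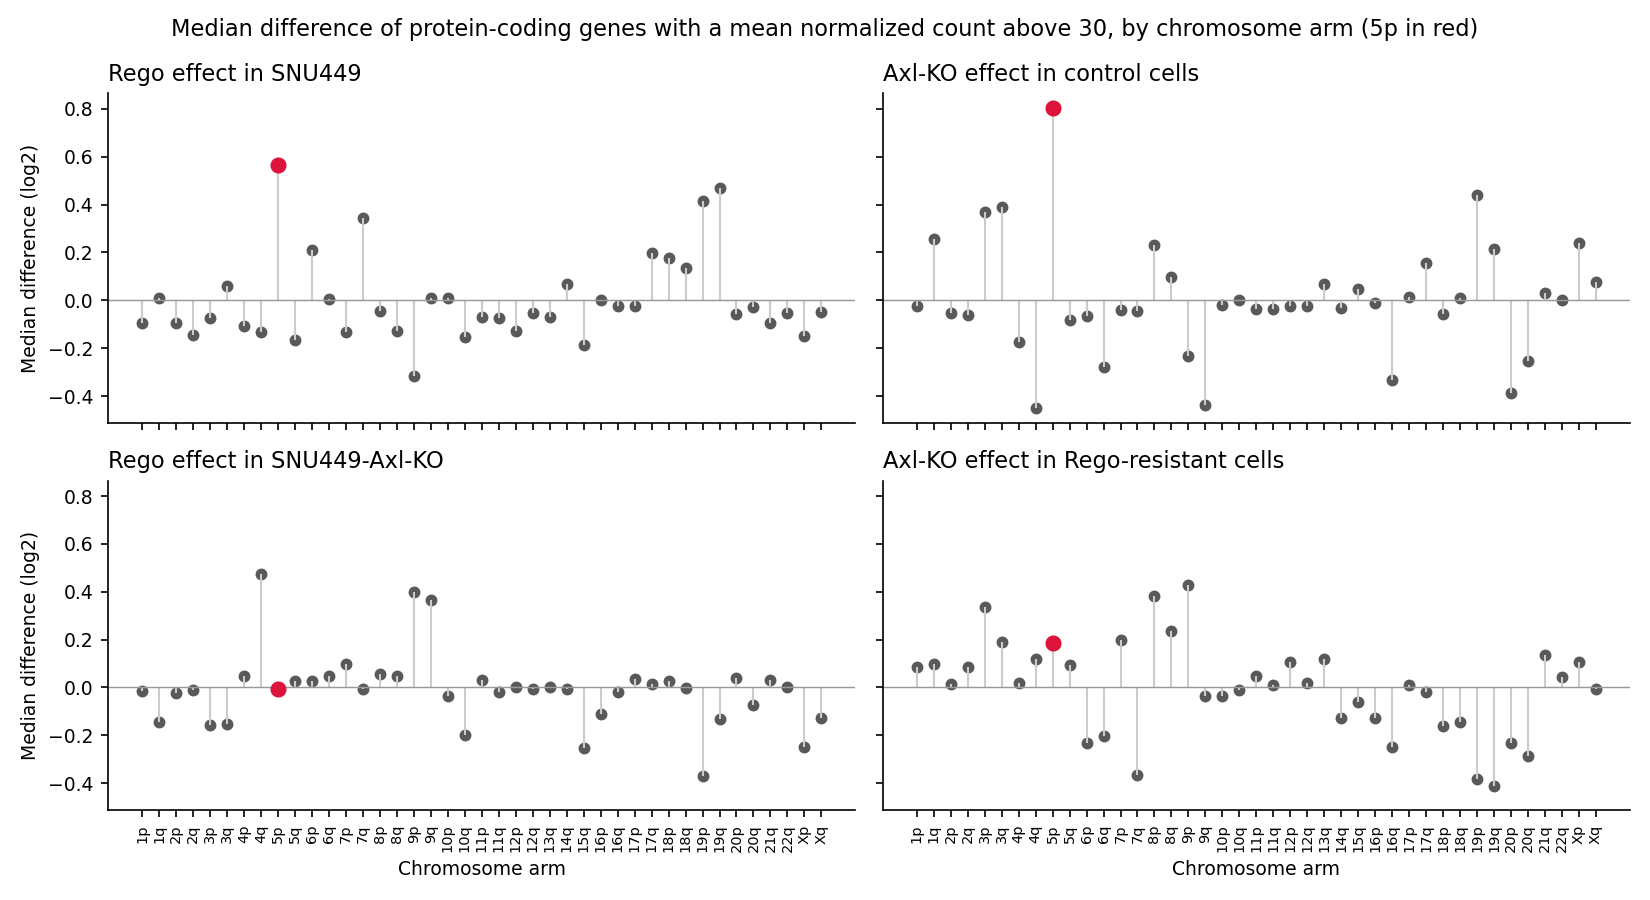
The median difference of group means (log2) of protein-coding genes with a mean normalized count above 30 is plotted for each of 41 chromosome arms in 4 comparisons. The 5p arm, without the genes left out by name, is in red. The 5p point lies at 0.56 and 0.80 in the comparisons with SNU449-ctrl, farther from 0 than any other arm, and at -0.01 and 0.19 in the other comparisons.

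The spread of the members around the joint shift was set beside that of all genes. The scaled median absolute deviation of the members was 0.31 for the Rego effect in SNU449 and 0.30 for the Axl-KO effect in control cells, against 0.33 and 0.32 over all genes. It was 0.30 against 0.31 for resistance without Axl, 0.24 against 0.30 between the resistant groups and 0.48 against 0.44 for the interaction, and these spreads were not tested. PRKAA1, which encodes a catalytic subunit of the AMP-activated kinase, stayed closest to the median of the members over the 4 group comparisons, by at most 0.05. Its values were 105, 109 and 114 in SNU449-ctrl, 175, 174 and 127 in SNU449-Rego, 182, 167 and 208 in SNU449-Axl-KO-ctrl, and 173, 182 and 193 in SNU449-Axl-KO-Rego. All 3 SNU449-ctrl values were below the 9 others, and the other groups overlapped.

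The most abundant members were also lowest in SNU449-ctrl by group mean, where levels of genes are compared by 3′ tags, which do not scale with transcript length. RPL37, a protein of the large ribosomal subunit and the most abundant member at a mean normalized count of 9703, had values of 5064, 5615 and 8252 in SNU449-ctrl and of 11230, 10593 and 7934 in SNU449-Rego. It had 10814, 8681 and 8897 in SNU449-Axl-KO-ctrl, and 11203, 13345 and 11828 in SNU449-Axl-KO-Rego, and it was not called in any comparison. The RPL37 ranges of SNU449-ctrl and SNU449-Rego overlapped, and 15 annotated pseudogenes carry its name, so that some of its reads may be shared with copies. CCT5, a subunit of the cytosolic chaperonin with a mean normalized count of 2630, had 1472, 2033 and 1781 in SNU449-ctrl, 2852, 2382 and 2125 in SNU449-Rego, 3327, 3302 and 3503 in SNU449-Axl-KO-ctrl, and 2784, 2431 and 2931 in SNU449-Axl-KO-Rego. CCT5 was thus lowest in the control cells and highest in the naive Axl-KO cells without overlap, a difference of 0.95 (SE 0.19, adjusted p = 0.00423). MYO10, TARS1 and SUB1 followed with mean normalized counts of 1647, 1340 and 1189, and the values of TARS1 were 686, 850 and 658 in SNU449-ctrl against 1244 to 1746 in the 9 other libraries.

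The members are grouped below in lists by function, where 35.6% of all 73 members rose in SNU449-Rego and 58.9% in SNU449-Axl-KO-ctrl (4.31% and 4.03% of all genes), and no list was tested against the others. The list of cytokine, hormone and prostaglandin receptors held 4 members, of which 2 rose in SNU449-Rego and 3 in SNU449-Axl-KO-ctrl, with medians of 0.55 and 0.88. The first number was 1 without SNU449-Rego replicate 1, 2 or 3 or SNU449-ctrl replicate 1 or 3, and the second 1 without SNU449-Axl-KO-ctrl replicate 2 or 3. PTGER4, a prostaglandin E2 receptor, had 36, 58 and 34 in SNU449-ctrl, 71, 71 and 82 in SNU449-Rego, 83, 78 and 82 in SNU449-Axl-KO-ctrl, and 75, 50 and 69 in SNU449-Axl-KO-Rego. PTGER4 was lowest in SNU449-ctrl, whose range overlapped that of the resistant Axl-KO cells. OSMR, the oncostatin M receptor subunit, had 143, 100 and 146 in SNU449-ctrl, 163, 153 and 145 in SNU449-Rego, 205, 227 and 241 in SNU449-Axl-KO-ctrl, and 230, 316 and 216 in SNU449-Axl-KO-Rego. OSMR was thus higher in all 6 Axl-KO libraries than in the 6 others, and rose by 0.80 (SE 0.21, adjusted p = 0.023) in the naive cells. This OSMR call was lost without SNU449-Axl-KO-ctrl replicate 2 (0.0981) or replicate 3 (0.0914) and without SNU449-ctrl replicate 2 (0.159). LIFR, the receptor of leukemia inhibitory factor and a neighbour of OSMR, had differences of 0.56 between the control groups and 0.66 between the resistant groups and was not called. NPR3, the fourth receptor, is described with the genes that departed from the arm.

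The list of mitochondria and intermediary metabolism held 12 members. Of these 6 rose in SNU449-Rego and 7 in SNU449-Axl-KO-ctrl, with medians of 0.66 and 0.75, where 26 and 43 of all 73 members and 4.31% and 4.03% of all genes rose. The first number was 3 without SNU449-Rego replicate 2 or SNU449-ctrl replicate 1, and the second 2 without SNU449-Axl-KO-ctrl replicate 1 and 3 without SNU449-ctrl replicate 1. NNT, the transhydrogenase that supplies mitochondrial NADPH, had 113, 111 and 122 in SNU449-ctrl, 236, 249 and 200 in SNU449-Rego, 228, 194 and 194 in SNU449-Axl-KO-ctrl, and 210, 239 and 273 in SNU449-Axl-KO-Rego. SDHA, the flavoprotein of succinate dehydrogenase, had 216, 317 and 316 in SNU449-ctrl and 625, 470 and 390 in SNU449-Rego, with values from 382 to 438 in the Axl-KO libraries. NNT and SDHA were both lower in SNU449-ctrl than in all other libraries. NDUFS6, a subunit of respiratory complex I, had 435, 547 and 533 in SNU449-ctrl and values from 581 to 1157 in the 9 others, and HMGCS1, an enzyme ahead of mevalonate synthesis, differed by 0.26 and 0.37 in the comparisons with SNU449-ctrl without a call. SRD5A1, a steroid 5-alpha-reductase, was higher in SNU449-Rego (129, 121 and 130) than in SNU449-ctrl (80, 75 and 87), with values from 91 to 111 in the Axl-KO libraries.

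All 8 members of the list of DNA, chromatin and transcription rose in SNU449-Axl-KO-ctrl, and 3 of them rose in SNU449-Rego, with medians of 0.92 and 0.67, where 43 and 26 of all 73 members and 4.03% and 4.31% of all genes rose. The 8 fell to 4 without SNU449-Axl-KO-ctrl replicate 2, where TRIP13 (0.114), SUB1 (0.0755), NIPBL (0.088) and MED10 (0.086) lost the call, and to 5 without SNU449-ctrl replicate 1 or 2. The 3 fell to 0 without SNU449-Rego replicate 2 and to 1 without SNU449-ctrl replicate 2. BRD9, a bromodomain protein of SWI/SNF complexes, had 237, 238 and 203 in SNU449-ctrl, 346, 398 and 383 in SNU449-Rego, 412, 368 and 441 in SNU449-Axl-KO-ctrl, and 382, 369 and 376 in SNU449-Axl-KO-Rego. TRIP13, an ATPase of meiotic recombination and the spindle checkpoint, had 130, 191 and 120 in SNU449-ctrl, 278, 149 and 198 in SNU449-Rego, and 284, 372 and 276 in SNU449-Axl-KO-ctrl. BRD9 thus had no overlap between SNU449-ctrl and the rest, while TRIP13 overlapped between SNU449-ctrl and SNU449-Rego. NIPBL, the loader of cohesin, RAD1 of the DNA damage clamp, the transcription coactivator SUB1 and the zinc finger gene ZNF131 differed by 0.81, 0.98, 0.78 and 0.89 between the control groups. TERT, the catalytic subunit of telomerase, was on the list and was not in the table.

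Of the 12 members of the list of RNA processing and translation, 6 rose in SNU449-Rego and 9 in SNU449-Axl-KO-ctrl, with medians of 0.66 and 0.86. The first number was 1 without SNU449-Rego replicate 1, 3 without SNU449-Rego replicate 2, 2 without SNU449-ctrl replicate 2 and 3 without SNU449-ctrl replicate 3. DROSHA, the nuclease that starts the processing of microRNAs, had 188, 154 and 152 in SNU449-ctrl, 292, 307 and 245 in SNU449-Rego, 283, 323 and 379 in SNU449-Axl-KO-ctrl, and 265, 270 and 292 in SNU449-Axl-KO-Rego. NSUN2, an RNA cytosine methyltransferase, had 179, 255 and 177 in SNU449-ctrl, 326, 281 and 362 in SNU449-Rego, 466, 425 and 450 in SNU449-Axl-KO-ctrl, and 358, 319 and 337 in SNU449-Axl-KO-Rego. Both were lowest in SNU449-ctrl without overlap, and NSUN2 was highest in the naive Axl-KO cells. PAIP1, which binds the poly(A)-binding protein, differed by 0.77 and 0.95 in these comparisons, and ZFR, a zinc finger RNA-binding protein, by 0.14 and 0.52 without a call.

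The list of ubiquitin, folding and protein turnover held 7 members, of which 1 rose in SNU449-Rego, or 2 without SNU449-ctrl replicate 3, and 2 in SNU449-Axl-KO-ctrl, with medians of 0.44 and 0.53. MARCHF6, a ubiquitin ligase of the endoplasmic reticulum, had 267, 275 and 319 in SNU449-ctrl, 670, 659 and 508 in SNU449-Rego, 554, 505 and 598 in SNU449-Axl-KO-ctrl, and 685, 740 and 699 in SNU449-Axl-KO-Rego. MARCHF6 was lowest in SNU449-ctrl without overlap, and with CCT5 it made up the 2 that rose. SKP2, which recruits the cell cycle inhibitor p27 to its ubiquitin ligase, had 100, 114 and 78 in SNU449-ctrl and values from 92 to 174 in the others, with overlap and no call. RETREG1, FBXO4 and TTC33, the members of the list that did not follow the arm, are given with the departing genes.

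The list of kinases, trafficking, adhesion and cytoskeleton held 10 members, of which 2 rose in SNU449-Rego and 7 in SNU449-Axl-KO-ctrl, with medians of 0.49 and 0.81. The first number was 1 without SNU449-ctrl replicate 2 or 3, and the second 4 without SNU449-Axl-KO-ctrl replicate 3 or SNU449-ctrl replicate 2 and 3 without SNU449-ctrl replicate 1. GOLPH3, a Golgi protein, had 160, 150 and 109 in SNU449-ctrl, 266, 249 and 273 in SNU449-Rego, 285, 269 and 348 in SNU449-Axl-KO-ctrl, and 268, 321 and 311 in SNU449-Axl-KO-Rego. RICTOR, which defines mTOR complex 2, had 79, 78 and 103 in SNU449-ctrl, 103, 97 and 105 in SNU449-Rego, 162, 118 and 150 in SNU449-Axl-KO-ctrl, and 176, 258 and 142 in SNU449-Axl-KO-Rego. GOLPH3 separated SNU449-ctrl from all other libraries, whereas RICTOR separated all Axl-KO libraries from the 6 others. RICTOR rose by 0.87 (SE 0.23, adjusted p = 0.0349) between the resistant groups, a call lost without SNU449-Axl-KO-Rego replicate 1 (0.112) or replicate 2 (0.274) and without SNU449-Rego replicate 1 (0.104), replicate 2 (0.132) or replicate 3 (0.084). RICTOR overlaps the end of OSMR on the opposite strand, and since the strand used in counting is not stated, shared reads cannot be told apart. DAB2, an endocytic adaptor, differed by 0.04 and 0.45 in the comparisons with SNU449-ctrl and was not called.

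The list of transporters and secreted proteins held 4 members, of which SLC12A7 and CLPTM1L rose in both comparisons with SNU449-ctrl, and the list had medians of 0.61 and 0.74. In SNU449-Rego 1 of them was called without SNU449-Rego replicate 1 or 2 or SNU449-ctrl replicate 1. CLPTM1L, a membrane protein encoded next to TERT, had 320, 389 and 382 in SNU449-ctrl, 744, 753 and 512 in SNU449-Rego, 676, 746 and 777 in SNU449-Axl-KO-ctrl, and 566, 417 and 598 in SNU449-Axl-KO-Rego. It was lowest in SNU449-ctrl without overlap. SELENOP, a selenium transport protein secreted by hepatocytes, had 98, 60 and 101 in SNU449-ctrl, 85, 114 and 67 in SNU449-Rego, 91, 74 and 94 in SNU449-Axl-KO-ctrl, and 115, 173 and 138 in SNU449-Axl-KO-Rego. SELENOP had no overlap between the resistant Axl-KO cells and the other groups and was not called in any comparison. The 16 members on no list had medians of 0.55 and 0.59, with 4 and 5 that rose. The 4 became 1 without SNU449-Rego replicate 2 or SNU449-ctrl replicate 2 and 2 without SNU449-ctrl replicate 3. The 5 became 3, 2 and 3 without SNU449-Axl-KO-ctrl replicate 1, 2 and 3, and 1 without SNU449-ctrl replicate 2.

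Members whose difference lay more than 3 scaled median absolute deviations from the median of the members were taken to depart from the arm. In SNU449-Rego against SNU449-ctrl these were NPR3, LPCAT1 and SLC12A7 above the arm and RETREG1, FYB1 and FBXO4 below it, and in SNU449-Axl-KO-ctrl TTC33 below it. In the resistance comparison without Axl, FYB1, TPPP and NPR3 lay above and RAI14 below. Between the resistant groups FYB1 and RETREG1 lay above, and in the interaction FYB1. The 9 genes were chosen for their distance, so that the distance is a description and was not tested. For all but FYB1 differences are also given on a count scale, solved from the authors' mean normalized counts and taken relative to all genes, an addition made after the data had been seen. The solved mean of FYB1 in SNU449-Rego was -9.08 (-19.5 to -0.88 when 1 of the 7 tables was left out), which shows that low solved means can be wrong by several counts.

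**Figure D4:**
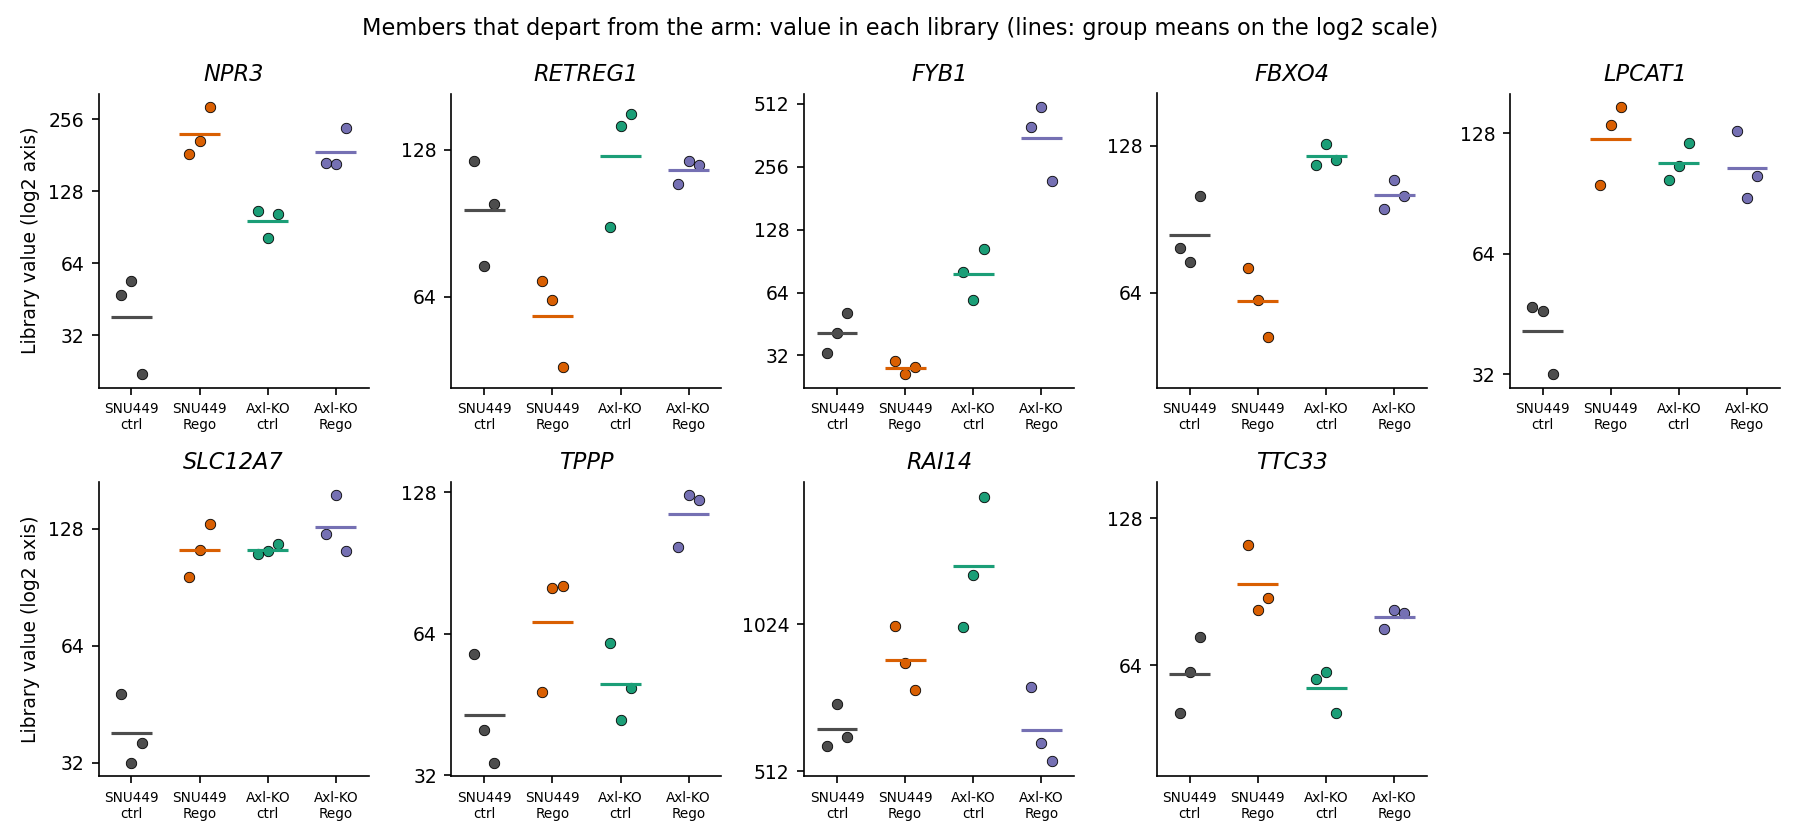
Library values (log2 axis) are plotted for the 9 members that departed from the arm, with 3 libraries per group and a line at each group mean on the log2 scale. FYB1 reaches 219 to 496 in SNU449-Axl-KO-Rego and 26 to 30 in SNU449-Rego, and NPR3 lies at 22 to 54 in SNU449-ctrl and 183 to 289 in SNU449-Rego.

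FYB1, an adaptor protein of immune cell signaling also known as ADAP, is a member through its level in SNU449-Axl-KO-Rego, since its solved means in the 3 other groups averaged 23.5. It had 33, 41 and 51 in SNU449-ctrl, 30, 26 and 28 in SNU449-Rego, 80, 59 and 103 in SNU449-Axl-KO-ctrl, and 399, 496 and 219 in SNU449-Axl-KO-Rego. FYB1 was thus low in both SNU449 groups, with the lowest values in the resistant cells, and rose in the resistant Axl-KO cells above all other libraries. The difference between the resistant groups was 3.61 (SE 0.28, adjusted p = 6.02e-07), the largest of all 15601 genes in that direction, and that of resistance without Axl 2.15 (SE 0.28, adjusted p = 0.000158). The interaction was 2.68 (SE 0.39, adjusted p = 0.000468). In the naive cells its difference of 0.92 (SE 0.28, adjusted p = 0.0494) passed the threshold narrowly, and 8 of the 12 fits without a library lost the call, with an adjusted p of 0.241 without SNU449-Axl-KO-ctrl replicate 3, 0.227 without SNU449-ctrl replicate 1, 0.13 without SNU449-ctrl replicate 2, 0.116 without SNU449-Axl-KO-ctrl replicate 1, 0.0671 without SNU449-Axl-KO-Rego replicate 1, and 0.0641, 0.0591 and 0.0539 without SNU449-Rego replicate 1, 2 and 3.

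NPR3 had 47, 54 and 22 in SNU449-ctrl, 183, 208 and 289 in SNU449-Rego, 106, 82 and 103 in SNU449-Axl-KO-ctrl, and 168, 166 and 236 in SNU449-Axl-KO-Rego. It was lowest in SNU449-ctrl, intermediate in the naive Axl-KO cells and highest in both resistant groups, which overlapped. The differences from SNU449-ctrl were 2.51 (SE 0.28, adjusted p = 1.88e-05) in SNU449-Rego and 1.31 (SE 0.28, adjusted p = 0.00763) in SNU449-Axl-KO-ctrl. On the count scale they were 4.82 and 3.21, with solved means of 7.92 in SNU449-ctrl (6.32 to 8.93 when 1 of the 7 tables was left out) and 200 in SNU449-Rego. Resistance without Axl gave 0.95 (SE 0.28, adjusted p = 0.0645), and the interaction was -1.55 (SE 0.40, adjusted p = 0.0269), with 1.17 and -3.66 on the count scale. The interaction lost its call without SNU449-Axl-KO-Rego replicate 1 (0.0884) or replicate 2 (0.0932), SNU449-Axl-KO-ctrl replicate 1 (0.0577) or replicate 3 (0.065), or SNU449-Rego replicate 3 (0.0819).

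LPCAT1 and SLC12A7 differed from SNU449-ctrl by more than the median of the members in both comparisons. By group mean LPCAT1 was highest in SNU449-Rego and SLC12A7 in SNU449-Axl-KO-Rego. LPCAT1 had 47, 46 and 32 in SNU449-ctrl, 95, 134 and 149 in SNU449-Rego, 98, 106 and 121 in SNU449-Axl-KO-ctrl, and 130, 88 and 100 in SNU449-Axl-KO-Rego. SLC12A7 had 48, 32 and 36 in SNU449-ctrl, 96, 113 and 132 in SNU449-Rego, 110, 112 and 117 in SNU449-Axl-KO-ctrl, and 124, 156 and 112 in SNU449-Axl-KO-Rego. In both genes the control cells lay below all others and the other groups overlapped. On the count scale the differences from SNU449-ctrl were 3.48 in SNU449-Rego and 3.09 in SNU449-Axl-KO-ctrl for LPCAT1, and 3.56 and 3.46 for SLC12A7, against 1.57, 1.37, 1.54 and 1.54 on the main scale. They rest on low solved means in SNU449-ctrl, 9.92 for LPCAT1 (7.77 to 11.7 when 1 table was left out) and 7.98 for SLC12A7 (4.75 to 9.78), and their size is uncertain. The interactions were -1.61 (SE 0.32, adjusted p = 0.00576) and -1.35 (SE 0.30, adjusted p = 0.011), with -3.58 and -3.33 on the count scale.

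RETREG1, a receptor for autophagy of the endoplasmic reticulum, had 121, 74 and 99 in SNU449-ctrl, 69, 63 and 46 in SNU449-Rego, 89, 143 and 151 in SNU449-Axl-KO-ctrl, and 109, 121 and 119 in SNU449-Axl-KO-Rego. FBXO4, an F-box protein, had 79, 74 and 101 in SNU449-ctrl, 72, 62 and 52 in SNU449-Rego, 117, 129 and 120 in SNU449-Axl-KO-ctrl, and 95, 109 and 101 in SNU449-Axl-KO-Rego. In both genes the 3 SNU449-Rego libraries were the lowest of all 12, where most members lay above SNU449-ctrl. The differences from SNU449-ctrl of -0.71 (SE 0.24, adjusted p = 0.0865) and -0.44 (SE 0.20, adjusted p = 0.198) were not called, though RETREG1 was called without SNU449-Axl-KO-ctrl replicate 1 (0.0444) or SNU449-ctrl replicate 2 (0.0466). On the count scale they were -1.69 and -1.05. Between the resistant groups RETREG1 rose by 0.98 (SE 0.24, adjusted p = 0.0267) and FBXO4 by 0.71 (SE 0.20, adjusted p = 0.046), with 1.99 and 1.40 on the count scale. The RETREG1 call was lost without SNU449-Axl-KO-Rego replicate 1 (0.089), 2 (0.138) or 3 (0.0972) and without SNU449-Rego replicate 2 (0.0669) or 3 (0.149). The FBXO4 call was lost in 9 of the 12 fits, with adjusted p-values of 0.126, 0.207 and 0.133 without SNU449-Axl-KO-Rego replicate 1, 2 and 3, 0.13 and 0.201 without SNU449-Rego replicate 2 and 3, 0.0509, 0.0653 and 0.0504 without SNU449-Axl-KO-ctrl replicate 1, 2 and 3, and 0.0506 without SNU449-ctrl replicate 1.

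RAI14, an actin-associated ankyrin-repeat protein, had 577, 702 and 602 in SNU449-ctrl, 1015, 853 and 751 in SNU449-Rego, 1012, 1289 and 1862 in SNU449-Axl-KO-ctrl, and 763, 586 and 538 in SNU449-Axl-KO-Rego. It rose by 1.10 (SE 0.23, adjusted p = 0.0052) in the naive Axl-KO cells and fell by 1.11 (SE 0.23, adjusted p = 0.00811) from there to the resistant Axl-KO cells, which overlapped SNU449-ctrl. On the count scale these were 1.16 and -1.07. TPPP, a tubulin-binding protein, had 58, 40 and 34 in SNU449-ctrl, 48, 80 and 81 in SNU449-Rego, 61, 42 and 49 in SNU449-Axl-KO-ctrl, and 98, 126 and 123 in SNU449-Axl-KO-Rego. The TPPP values of SNU449-ctrl and the naive Axl-KO cells overlapped, and it was highest in the resistant Axl-KO cells without overlap, with a rise of 1.18 (SE 0.25, adjusted p = 0.00986) from the naive ones. It is a member through that group, with a mean of 27.2 over the solved means of the others, so the rise is not independent of the selection. On the count scale this rise was 1.93, and the difference of the naive Axl-KO cells from SNU449-ctrl 0.78, against 0.22 on the main scale and 0.98 for the median of the members on the count scale. The Rego effect on TPPP in SNU449 was 1.80 on the count scale, close to that without Axl, against 0.65 on the main scale without a call. Its interaction was 0.13 on the count scale and 0.54 on the main scale, also without a call. Of these resistance calls without Axl, that of RAI14 was lost without SNU449-Axl-KO-Rego replicate 2 (0.0704) or 3 (0.0683) or SNU449-Axl-KO-ctrl replicate 3 (0.0524), and that of TPPP without SNU449-Axl-KO-Rego replicate 2 (0.0891) or 3 (0.0577) or SNU449-Axl-KO-ctrl replicate 2 (0.099).

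TTC33 was the member without a higher level in the naive Axl-KO cells. Its values were 51, 62 and 73 in SNU449-ctrl, 113, 83 and 88 in SNU449-Rego, 60, 62 and 51 in SNU449-Axl-KO-ctrl, and 76, 83 and 82 in SNU449-Axl-KO-Rego, so that both resistant groups lay above both control groups without overlap. It was not called in any comparison, and on the count scale it lay at -0.14 in the naive Axl-KO cells. Of the 5 members at or below 0 in SNU449-Rego, RETREG1, FYB1 and FBXO4 are given above, and the others were ATPSCKMT at -0.03, named after its value was seen, and BASP1 at -0.04. BASP1, a membrane-associated protein of growing axons, had 598, 721 and 639 in SNU449-ctrl, 768, 736 and 449 in SNU449-Rego, 1152, 1589 and 1574 in SNU449-Axl-KO-ctrl, and 1083, 680 and 1268 in SNU449-Axl-KO-Rego. It overlapped between the SNU449 groups and rose in the naive Axl-KO cells by 1.13 (SE 0.25, adjusted p = 0.00899), a call lost without SNU449-Axl-KO-ctrl replicate 2 (0.0715) or 3 (0.052) or SNU449-ctrl replicate 1 (0.0529).

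Promoter sequences from RefSeq (GRCh38.p14, 250 bases before to 50 after an annotated start) matched 63 of the 73 members. Where a member had several annotated starts, the first listed was taken, and its use in these cells is unknown. Those of FYB1 and NPR3, the members farthest from the arm, are shown beside that of PRKAA1, the member closest to it, 5′ to 3′ on the strand of the gene with CG dinucleotides in capitals. They lie at chr5:39270600-39270899 (minus strand), chr5:32690622-32690921 (plus strand) and chr5:40798128-40798427 (minus strand), and each window surrounds an annotated start inside the outer bounds of its gene.
FYB1: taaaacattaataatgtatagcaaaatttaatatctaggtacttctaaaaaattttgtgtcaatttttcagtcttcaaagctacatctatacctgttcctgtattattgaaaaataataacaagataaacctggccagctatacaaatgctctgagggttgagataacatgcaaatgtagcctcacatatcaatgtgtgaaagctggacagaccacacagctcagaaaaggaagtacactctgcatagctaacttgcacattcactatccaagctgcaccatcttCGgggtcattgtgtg
NPR3: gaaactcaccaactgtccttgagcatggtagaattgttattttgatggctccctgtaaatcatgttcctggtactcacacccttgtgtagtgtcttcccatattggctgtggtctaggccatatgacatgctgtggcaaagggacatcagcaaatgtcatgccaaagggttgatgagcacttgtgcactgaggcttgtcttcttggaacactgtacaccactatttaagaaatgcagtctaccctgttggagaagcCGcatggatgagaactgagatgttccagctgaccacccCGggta
PRKAA1: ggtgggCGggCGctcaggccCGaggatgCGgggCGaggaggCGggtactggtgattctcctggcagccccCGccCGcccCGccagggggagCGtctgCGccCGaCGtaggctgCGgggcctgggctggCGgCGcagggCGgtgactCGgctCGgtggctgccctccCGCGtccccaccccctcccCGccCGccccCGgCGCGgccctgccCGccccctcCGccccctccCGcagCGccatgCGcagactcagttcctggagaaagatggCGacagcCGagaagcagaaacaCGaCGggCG
The FYB1 window held 1 CG and 36% G and C, the NPR3 window 2 CG and 47.3%, and the PRKAA1 window 36 CG and 77%. The windows of the 7 other departing members held from 28 CG (TTC33) to 51 CG (TPPP). The member promoters had a median of 30 CG and 67% G and C, against 14 and 58.7% in all 34943 promoters of the same length, of which 96.0% held CG. The 34943 promoters were not filtered by gene type or level and may hold several starts of a gene. They are thus no matched background for the members. At most 2 CG were found in 5 of the 63 member promoters (7.94%) and in 18.3% of all. CG was chosen for display after other letters had been counted on both strands. CCAAT was found in 19 member promoters (30.2%, against 34.6% of all), TATAAA in 3 (4.76%, against 11.6%) and TGANTCA in 3 (4.76%, against 7.72%). These letters describe the windows, and their part in the levels was not tested.

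For 12 members that belong to complexes or pathways, the partners encoded on other arms give a comparison that does not share the position. Other arms shifted as well, so the partners are not an unshifted baseline. Of 46 listed partners 45 were in the table, with IL6ST and SKP1 on 5q and the others on other chromosomes. The 12 members had a median difference of 0.50 in SNU449-Rego against -0.14 for the partners, and of 0.76 against 0.05 in SNU449-Axl-KO-ctrl. Of the 12 members, 3 and 8 rose in these comparisons, beside 35.6% and 58.9% of all 73 members and 4.31% and 4.03% of all genes. The 3 fell to 1 and 0 without SNU449-Rego replicate 1 and 2, and the 8 to 4 without SNU449-Axl-KO-ctrl replicate 1, 2 or 3 or SNU449-ctrl replicate 1 and to 5 without SNU449-ctrl replicate 2. Of the 45 partners, none passed in SNU449-Rego. There limma gave 2 higher (4.44%, against 11.5% of all genes) and 4 lower (8.89%, against 9.71%) at an unadjusted p under 0.05. In SNU449-Axl-KO-ctrl, where 4.03% of all genes rose, 1 partner rose, the NIPBL partner MAU2 on chromosome 19 at 0.78 (SE 0.22, adjusted p = 0.0354). The arms of chromosome 19 had medians above 0 in this comparison, 0.44 for 19p and 0.22 for 19q. The MAU2 call was lost without SNU449-Axl-KO-ctrl replicate 2 (0.14) or 3 (0.122) and without SNU449-ctrl replicate 1 (0.0623) or 2 (0.214). CCT5 lay at 0.48 and 0.95, while the 7 other chaperonin subunits lay between -0.48 and -0.14 in SNU449-Rego and between -0.14 and 0.43 in SNU449-Axl-KO-ctrl. SDHA lay at 0.80 and 0.59, above the 4 partners listed for succinate dehydrogenase, which lay between -0.33 and -0.14 and between 0.05 and 0.17. NDUFS6 lay at 0.92 in SNU449-Rego, above the 5 other complex I subunits on the list, which lay between -0.24 and 0.32. RICTOR was the member closest to its partners in SNU449-Rego, at 0.24 among values from 0.05 to 0.34. In the comparisons without SNU449-ctrl, members and partners had medians of -0.07 and -0.10 for resistance without Axl, and of 0.17 and 0.01 between the resistant groups.

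**Figure D5:**
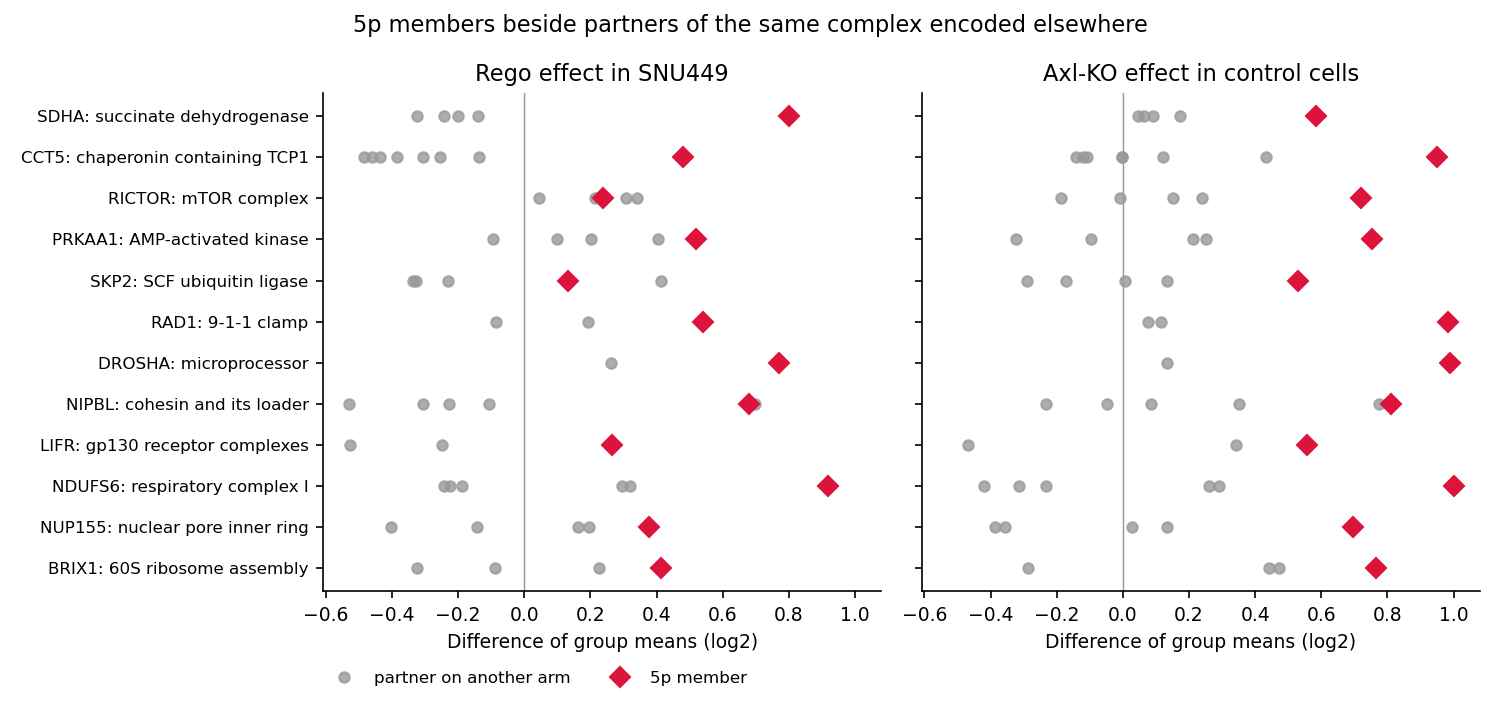
Diamonds mark the difference of group means (log2) of 12 members and circles that of 45 partners of the same complex or pathway encoded on other arms, for the Rego effect in SNU449 and the Axl-KO effect in control cells. The members have medians of 0.50 and 0.76 and the partners of -0.14 and 0.05, and RICTOR, SKP2 and NIPBL lie among or beside their partners in SNU449-Rego.

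Other genes of the arm were counted apart from the members. Of the 4 left out by name, NKD2, an inhibitor of Wnt signaling, had 26, 16 and 23 in SNU449-ctrl, 52, 60 and 44 in SNU449-Rego, 52, 58 and 56 in SNU449-Axl-KO-ctrl, and 34, 43 and 42 in SNU449-Axl-KO-Rego. NKD2 was lowest in SNU449-ctrl without overlap, with differences of 1.24 (SE 0.21, adjusted p = 0.000835) and 1.34 (SE 0.21, adjusted p = 0.000601). CDH6 lay at -0.09 and -0.08 and ADAMTS12 at 0.24 and 0.10 in the comparisons with SNU449-ctrl, and neither was called, nor was ADAMTS16. The 8 genes of other types with a mean normalized count above 30 had medians of 0.56 and 0.68. Of these, 3 rose in each comparison, beside 4.31% and 4.03% of all genes. All 50 genes of other types, at any level, had medians of 0.11 and 0.24, with 6 and 5 that rose. The 19 protein-coding genes at 30 or lower had medians of 0.10 and 0.08, on a scale that compresses low levels, and none was called against SNU449-ctrl. At an unadjusted p under 0.05, limma gave 3 of them higher in SNU449-Rego (15.8%, against 11.5% of all genes) and 1 lower (5.26%, against 9.71%). In SNU449-Axl-KO-ctrl it gave 2 higher (10.5%, against 11.2%) and 1 lower (5.26%, against 10.3%).

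Of the 73 members, 20 have an annotated pseudogene named after them (15 for RPL37, 9 for ANKRD33B, 4 each for SDHA and SUB1), 20 overlap another gene on the same strand and 42 overlap a gene on the opposite strand, so that reads of these loci may be shared. Among the 40 members with neither a named pseudogene nor an overlap on the same strand, a selection made after the data had been seen, 14 were called in SNU449-Rego and 24 in SNU449-Axl-KO-ctrl, beside 26 and 43 of all 73 members and 7.81% and 7.45% of all genes. On a count scale, solved from the authors' mean normalized counts for 72 members (all but FYB1), the medians were 0.63 and 1.12 against -0.16 and 0.14 over all genes. Relative to all genes these are 0.79 (1.73-fold) and 0.98 (1.97-fold), with -0.01 for resistance without Axl and 0.17 between the resistant groups. The medians of both comparisons with SNU449-ctrl were thus larger than on the main scale, and those of the comparisons without it were close to the main values of -0.01 and 0.19.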

How the data were processed

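RNA was isolated from the 4 groups of cells and sequenced as QuantSeq 3′ libraries, 3 per group. According to the submitters' processing notes, reads were trimmed with cutadapt 4.0 and aligned with STAR 2.5.3a to GRCh38 with spike-in sequences. Read counts per gene were compared by the authors with DESeq2, in a model that held the preparation date. The authors' 8 tables hold, for each library, a score and not a count, which the authors obtained by removing the preparation effect from variance-stabilized levels, taking the power of base 2 and rounding. The signal of a gene in the deposited tables is its mean normalized count, made by the authors from counts divided by size factors. The authors' columns of log2 fold changes, their errors, statistics, p-values and adjusted p-values, and 16 columns of group averages, hold the authors' own comparisons and were not used here.

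The members and lists were chosen with earlier results of these data known. For the 4 group comparisons and the interaction, log2(value + 1) of 15601 genes in the 12-library table of the backgrounds, without its 32 spike-in RNAs, was fitted by limma (version 3.58.1, trended eBayes, R 4.3.3). Medians over members carry no test. Tables were made with Python 3.11.15, pandas 2.3.3 and numpy 2.4.6, and figures with matplotlib 3.10.9. Positions come from the authors' tables and overlaps and pseudogene names from GENCODE release 44. Named were, in each of the 5 contrasts, the 5 called members with the largest difference in absolute size. In the comparisons with SNU449-ctrl, called members with the smallest difference were named only in part. Members over 3 scaled median absolute deviations (factor 1.4826) from the median of the members, up to 10 per contrast, were also named. So were the 5 most abundant members, members of the gene lists, AXL and the members next to the threshold.

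The removed preparation effect followed the replicate number, since deviations of libraries with the same number in different groups correlated across genes at -0.48 to -0.09 in all 18 pairs, where genes are not independent replicates. The replicate number was therefore fitted as a block, and without the replicate block 26 members were called in the interaction, 5 for resistance without Axl and 11 between the resistant groups. Libraries of a group shared 2.81% to 3.32% equal values, so that none was a copy of another. The fit was tested on simulated data, with the size of the added differences raised after a first trial had recovered fewer than required. Part of the genes with an added difference of the smaller size stayed uncalled, so that a member without a call may still have shifted.

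Group means on a count scale were solved by least squares from 7 tables (median misfit 0.651% of the members' means). They are given relative to all genes because the medians of all genes proved shifted on that scale, a choice made after the values were seen. The alternatives were the other 12-library table, the tables of pairs of groups with and without the replicate block, no block and no pseudocount. They also held a filter at 30, 3 other scalings, leaving out each library, minimum levels of members of 10 and 100, and the count scale. Added after seeing the data were members without named pseudogenes or overlaps on the same strand, and numbers called per list without each library. Departing members on the count scale and without each table, and membership without each group, were also added then. The single members counted under the alternatives were called members at either end of each contrast. Adjusted p-values from limma without each library are also given for other genes, including the partner MAU2.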

Additional observations from a re-analysis of the deposited data

Results flagged for a closer look

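The Rego effect differed between the backgrounds in 13 members (17.8%, against 5.87% of all genes) by the interaction term in limma. FYB1 had an interaction of 2.68, with a higher level in resistant cells without Axl and not in resistant cells with Axl, and it is a member through its level in the resistant cells without Axl. The interaction was -1.61 for LPCAT1, -1.58 for RAI14, -1.55 for NPR3, -1.43 for MYO10 and -1.35 for CLPTM1L. With MYO10 the call was lost in 9 of the 12 fits without a library, with adjusted p-values of 0.0528, 0.0613 and 0.104 without SNU449-Axl-KO-Rego replicate 1, 2 and 3, 0.0531 and 0.0741 without SNU449-Axl-KO-ctrl replicate 2 and 3, 0.0958 and 0.103 without SNU449-Rego replicate 1 and 2, and 0.0516 and 0.0965 without SNU449-ctrl replicate 1 and 2. The NPR3 call was lost without SNU449-Axl-KO-Rego replicate 1 (0.0884) or 2 (0.0932), SNU449-Axl-KO-ctrl replicate 1 (0.0577) or 3 (0.065), or SNU449-Rego replicate 3 (0.0819). The SNU449-ctrl libraries, in which 66 of the 73 members had their lowest mean, enter every interaction, and their part in a single gene's interaction was not tested.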

How the results depend on the processing

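The direction of the median of the members was kept for both comparisons with SNU449-ctrl, for the Axl-KO effect in resistant cells and for the interaction under every alternative run, while that of resistance without Axl lay near 0 with either sign. Values that moved are grouped by setting, and the cause was not tested unless stated.

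Without the replicate block, members called were 5 for the Rego effect in SNU449-Axl-KO, 11 for the Axl-KO effect in Rego-resistant cells and 26 for the interaction. Genes called in all were then 2175 for the Rego effect in SNU449, 1552 in SNU449-Axl-KO, 2182 for the Axl-KO effect in control cells, 1503 in resistant cells and 1826 for the interaction. With the tables of pairs of groups and no replicate block, members called were 40, 17 and 24 for the Rego effect in SNU449, in SNU449-Axl-KO and the Axl-KO effect in resistant cells, all genes called were 2947, 3566, 3750 and 4024 for the 4 group comparisons, and the medians were 0.48 and 0.68 against SNU449-ctrl. With these tables and the replicate block, members called were 12, 5 and 11, all genes called were 603 for each comparison with SNU449-ctrl and 1160 for the Axl-KO effect in resistant cells, and the medians were 0.48 and 0.68. Each pair table holds 6 libraries, so that fewer degrees of freedom remain.

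Centring on spike-in RNAs gave 5, 23 and 8 members called for the Rego effect in SNU449-Axl-KO, the Axl-KO effect in resistant cells and the interaction, 2326 genes in all for the Axl-KO effect in resistant cells (2242 higher and 84 lower), and medians of 0.11, 0.93, 0.49 and -0.36 for the Rego effect in SNU449-Axl-KO, the Axl-KO effects in control and resistant cells and the interaction. It moved the medians of all genes to -0.06, 0.13, 0.13, 0.32 and 0.19, and members minus all genes gave 0.56, -0.02, 0.80, 0.17 and -0.55 for the 5 contrasts. All genes called then split into 441 higher and 562 lower for the Rego effect in SNU449, 578 and 133 in SNU449-Axl-KO, 941 and 307 for the Axl-KO effect in control cells, and 671 and 236 for the interaction.

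Members above 100 (45) had medians of 0.67, 0.89 and -0.70 for the comparisons with SNU449-ctrl and the interaction, and 2 called for the Axl-KO effect in resistant cells, with fewer members as the construction. The 40 members without named pseudogenes or overlaps on the same strand had 14, 24 and 8 called for the Rego effect in SNU449, the Axl-KO effect in control cells and the interaction. On the count scale, relative to all genes, the medians were 0.79, 0.98 and -0.79, and without that subtraction the medians of the members were 0.63, 0.06, 1.12, 0.54 and -0.55 for the 5 contrasts and those of all genes -0.16, 0.08, 0.14, 0.38 and 0.24.

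Leaving out each library in turn gave 12 to 28 members called for the Rego effect in SNU449, 1 to 5 in SNU449-Axl-KO, 27 to 44 for the Axl-KO effect in control cells, 1 to 5 in resistant cells and 6 to 11 for the interaction. The medians ranged from 0.48 to 0.66, -0.021 to 0.086 (Rego effect in SNU449-Axl-KO), 0.72 to 0.83, 0.10 to 0.29 and -0.69 to -0.45, and all genes called from 740 to 1299, 205 to 891, 540 to 1275, 219 to 826 and 523 to 922. Of 33 results of single members, 18 lost their call in at least 1 of these fits, 10 of 27 with the pair tables and the replicate block, 5 with spike-in centring, and 2 each with upper-quartile centring and with centring on genes outside chromosome 5, and none of the 33 changed sign in the settings run. The depth per library is unknown, so its limit on weak genes could not be given.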
